A study of Mus musculus with 15 samples.

Results

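The splicing factors of the SR and hnRNP families were examined in RNA of mouse forebrain after hypoxic ischemia, in which blood flow and oxygen are cut together, with and without erythropoietin given beforehand. Members were taken by gene symbol from the annotation of the array: every Srsf and Hnrnp gene, together with Son, Srrm1, Srrm2, Tra2a, Tra2b, Clk1, Clk4, Luc7l, Luc7l2, Luc7l3, Ddx5 and Bcas2. This gave 41 genes of the 18193 genes that had a probe set with 1 symbol. The 41 genes were read by 148 probe sets, each a group of short oligonucleotide probes, and no gene had more than 8. The families were chosen by someone who knew earlier results of these data, and the values behind the choice are recorded for 2 genes only. Bcas2 had been named for its difference between VEH-HI and VEH-Sham and Son for its difference between EPO-HI and VEH-HI, so the values of Bcas2 and Son are given without a test.

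Pre-mRNA splicing removes introns in the spliceosome, which is built on each intron from small nuclear ribonucleoprotein particles and many auxiliary proteins. SR proteins bind exons through RNA recognition motifs, recruit the spliceosome through domains rich in arginine and serine, and are driven in and out of nuclear speckles by phosphorylation. The hnRNPs coat nascent transcripts and often oppose SR proteins in the choice of splice sites. In brain both families shape the large repertoire of alternatively spliced neuronal transcripts, and several members regulate their own mRNAs through alternative exons.

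The study had 3 groups of 5 forebrain arrays. EPO-HI arrays 11 to 15 came from mice given erythropoietin at 5 U per g into the peritoneum 1 h before hypoxic ischemia. VEH-HI arrays 6 to 10 came from mice given vehicle 1 h before hypoxic ischemia, and VEH-Sham arrays 1 to 5 from mice given vehicle 1 h before sham surgery. No group received erythropoietin with sham surgery, and strain, age, sex and the time from injury to sampling are not stated in the labels. Nothing in the labels says that the samples are separate animals, so the p-values describe spread between samples that may be technical. In whole forebrain, fewer cells of a type and less RNA per cell cannot be told apart.

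The sham arrays were not alike. All 10 hypoxic ischemia arrays and VEH-Sham 5 had median intensities of 39.2 to 44.4, whereas VEH-Sham 1 to 4 had medians of 55.3 to 57.9. Over the tested splicing factor probe sets, VEH-Sham 5 correlated at 0.977 to 0.986 with the VEH-HI arrays and at 0.949 to 0.963 with VEH-Sham 1 to 4. Gapdh control probes, which reflect RNA quality, had a 3' over 5' ratio of 0.716 to 0.756 in the hypoxic ischemia arrays, 0.634 to 0.719 in VEH-Sham 1 to 4 and 0.731 in VEH-Sham 5. The same ratio of Actb control probes did not separate the sets. It was 1.24 to 1.5 in the hypoxic ischemia arrays, 1.28 to 1.4 in VEH-Sham 1 to 4 and 1.36 in VEH-Sham 5. Differences from VEH-Sham that passed the threshold are therefore given with the difference from VEH-Sham 5 alone, which is the value within that set of 11 arrays and rests on a single sham array. In a fit with the array set as a block, or within the set of 11 arrays, 0 splicing factor probe sets differed between VEH-HI and VEH-Sham in limma, while 9 had an unadjusted p under 0.05 in each fit (6.72%). Over the whole array 3 and 7 probe sets passed, and 6.79% and 6.53% had an unadjusted p under 0.05. The part of the array set in the differences below was not tested further.

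All values are log2(intensity + 16), and differences are on that scale with their standard error (SE, n = 5 arrays per group). Of the 148 probe sets, 134 were among the brighter 60% of the array that were tested, and all 41 genes kept at least 1. The members nearest that limit were Tra2b 1441466_at and Hnrnpab 1459880_at inside it, with means of 5.50 and 5.70, and Hnrnpab 1431349_at and Tra2a 1439043_at outside it, with means of 5.35 and 5.27. The limma p-values were adjusted by Benjamini-Hochberg across the 27022 probe sets tested, with a threshold of 0.05.

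VEH-HI was set against VEH-Sham, both given vehicle. All VEH-HI arrays but only 1 VEH-Sham array lay in the set of 11 arrays, so this comparison mixes injury with the array set. Of the 134 splicing factor probe sets, 12 were higher and 18 lower in VEH-HI, or 22.4%. Over all probe sets tested on the array, 22.8% passed, 9.85% higher and 13% lower, so the families stood at the background. The 30 include 1 higher and 2 lower probe sets of Son and 1 lower of Bcas2, genes whose values had entered the choice. Both genes also enter the counts below. The median difference was 0.01 over the members and -0.06 over all tested probe sets. Differences stayed within 0.3 in either direction for 95 members (70.9%), against 61.1% of all probe sets. Against VEH-Sham 5 alone, 23 of the 30 kept their sign (76.7%), against 83.2% of all probe sets past the threshold. The 12 higher probe sets had a median difference of 0.36, which was 0.10 against VEH-Sham 5, and the 18 lower ones had -0.56, which was -0.10 against VEH-Sham 5. At an unadjusted p under 0.05 there were 47 members, against 37.5% of all tested probe sets. The arrays of VEH-HI and VEH-Sham did not overlap at 11 member probe sets, a condition that 8.22% of all tested probe sets met. With VEH-Sham 1 to 4 alone this held at 32 members, against 26.3% of all.

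**Figure D1:**
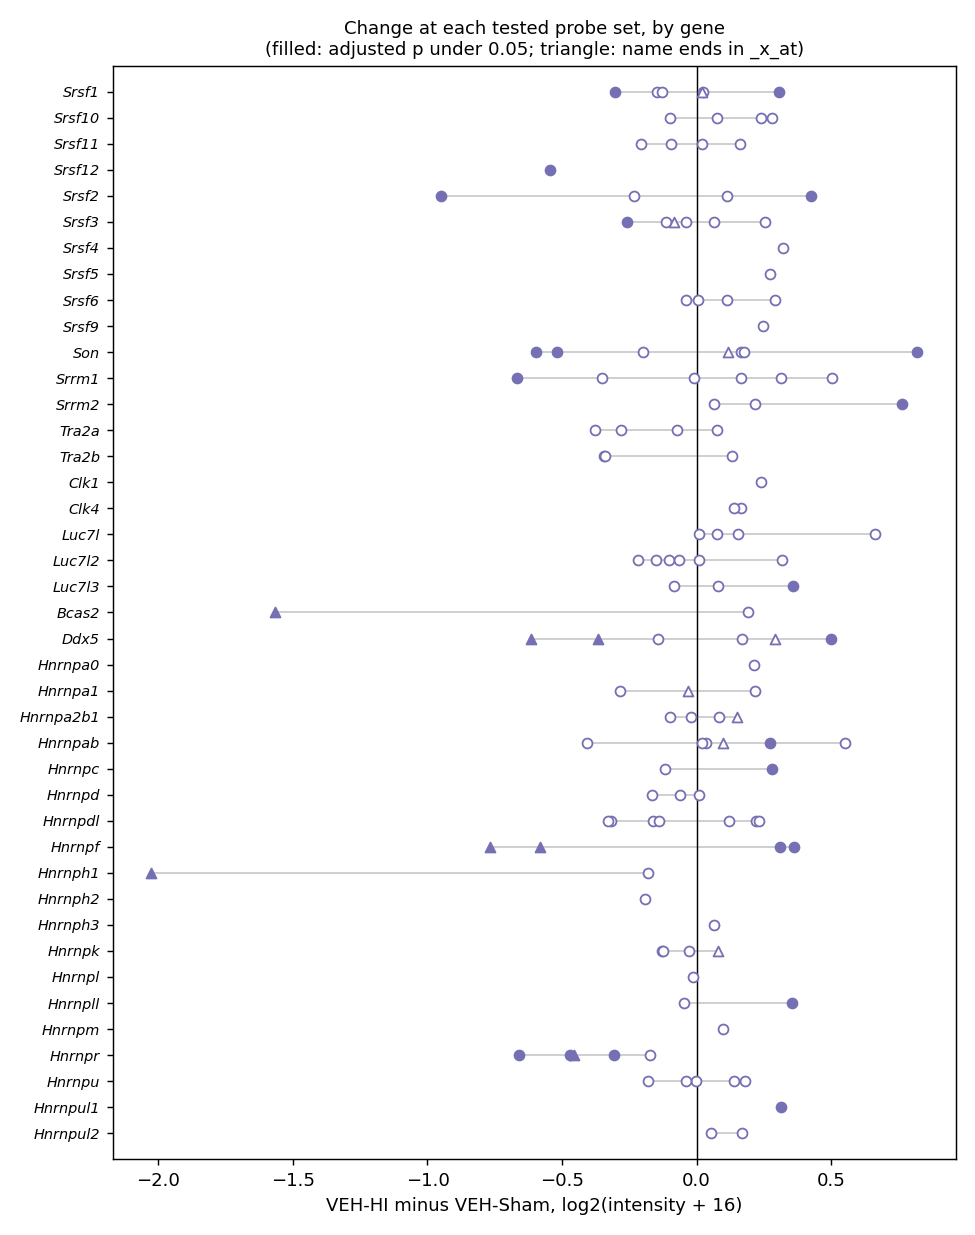
Difference between VEH-HI and VEH-Sham in log2(intensity + 16) at each of the 134 tested probe sets, 1 line per gene with its probe sets joined by a grey bar. Filled symbols passed an adjusted p of 0.05 in limma and triangles have names ending in _x_at; the probe sets of 24 genes lie on both sides of 0.

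Called by gene, 18 of the 41 genes had at least 1 probe set past the threshold and 23 had none. The 18 were 43.9% of the members, against 33.9% of the 13168 genes tested on the array, and genes with more probe sets have more chances to be counted. Among the 18, 6 genes had only higher probe sets past it, 7 only lower ones, and 5 had both. Bcas2 was among the 7 and Son among the 5, and values of both genes had entered the choice. No gene with several tested probe sets had all of them past the threshold in 1 direction. Of 30 genes with at least 2 tested probe sets, 24 had differences of both signs (80%) and 6 had 1 sign, as the plot of differences by gene shows. Over the array 53.5% of 6043 such genes had both signs, with a median of 2 tested probe sets against 4 in the members. The other 11 member genes had 1 tested probe set each.

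The Srsf genes, which encode SR proteins and relatives, had 32 tested probe sets, with a median difference of 0.02. Of these, 2 were higher and 4 lower in VEH-HI (18.8%, against 22.8% of all tested probe sets). Srsf1, the prototype SR protein, which binds purine-rich exonic enhancers, had 1 probe set past the threshold each way. Its 1453722_s_at read 10.35, 10.28, 10.16, 10.31 and 10.01 in EPO-HI, 10.20, 10.04, 10.14, 10.25 and 10.17 in VEH-HI, 9.82, 9.69, 9.96 and 9.75 in VEH-Sham 1 to 4 and 10.05 in VEH-Sham 5. Every VEH-HI array lay above VEH-Sham 1 to 4, and VEH-Sham 5 lay among the VEH-HI arrays. The difference was 0.31 (SE 0.09, limma adjusted p = 0.0189), or 0.11 against VEH-Sham 5, and 2 of the other 5 tested probe sets of Srsf1 had the same sign. Srsf1 1428100_at was lower in VEH-HI by 0.30 (-0.30, limma adjusted p = 0.0318) without overlap between the groups, and by 0.10 (-0.10) against VEH-Sham 5.

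Srsf2, also called SC35 and used as a marker of nuclear speckles, had the widest spread of the Srsf genes, with differences of -0.95 to 0.42 at its 4 probe sets. The higher one, 1452439_s_at, had 8.69, 8.79, 8.72, 8.77 and 9.04 in EPO-HI, 8.89, 8.72, 8.80, 8.80 and 8.96 in VEH-HI, 8.25, 8.12, 8.37 and 8.35 in VEH-Sham 1 to 4 and 8.94 in VEH-Sham 5. Here VEH-Sham 5 sat with the hypoxic ischemia arrays, far above the other sham arrays. The difference of 0.42 (SE 0.12, limma adjusted p = 0.0185) turned to -0.11 against VEH-Sham 5. The lower one, 1427816_at, had 6.67, 6.42, 6.10, 6.04 and 6.38 in EPO-HI, 5.90, 6.48, 6.39, 6.51 and 6.68 in VEH-HI, 7.47, 7.91, 7.62 and 6.90 in VEH-Sham 1 to 4 and 6.80 in VEH-Sham 5. All 10 hypoxic ischemia arrays lay below all sham arrays. The difference was -0.95 (SE 0.20, limma adjusted p = 0.00321) and -0.41 against VEH-Sham 5. At both of these probe sets, 1 of the other 3 of Srsf2 had the same sign.

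Srsf12, a relative of the splicing repressor Srsf10, was read by 1 probe set, 1437168_at, and was lower in VEH-HI. It had 8.46, 8.54, 8.81, 8.74 and 8.66 in EPO-HI, 8.74, 8.62, 8.66, 8.75 and 8.47 in VEH-HI, 9.10, 9.23, 9.37 and 9.45 in VEH-Sham 1 to 4 and 8.81 in VEH-Sham 5. The VEH-HI arrays lay below every sham array, with VEH-Sham 5 just above them. The difference was -0.55 (SE 0.11, limma adjusted p = 0.00297) and -0.17 against VEH-Sham 5. Srsf3, which couples splicing to export of mRNA, had 1 lower probe set of 6 (1416152_a_at, -0.26, SE 0.09, limma adjusted p = 0.037; -0.12 against VEH-Sham 5). The remaining Srsf genes had no probe set past the threshold. The single probe sets of Srsf4, Srsf5 and Srsf9 were at 0.32, 0.27 and 0.25, and against VEH-Sham 5 at 0.00, -0.10 and 0.10. Srsf6 ranged from -0.04 to 0.29, Srsf10 from -0.10 to 0.28 and Srsf11 from -0.21 to 0.16 over 4 probe sets each.

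The SR-related proteins Son, Srrm1, Srrm2, Tra2a and Tra2b had 23 tested probe sets. In VEH-HI 2 were higher and 4 lower (26.1%, against 22.8% of all tested probe sets). Son gave 1 of the higher and 2 of the lower ones. The 2 largest positive differences of the members were in this group. Son, a large scaffold of nuclear speckles that is needed for efficient splicing of introns with weak sites, read 9.69, 9.57, 9.51, 9.65 and 9.71 in EPO-HI at 1420952_at. The same probe set read 10.14, 10.02, 9.94, 10.02 and 9.84 in VEH-HI, 9.22, 9.07, 9.08 and 9.11 in VEH-Sham 1 to 4 and 9.37 in VEH-Sham 5. The 3 groups did not overlap: VEH-HI was highest, EPO-HI between and VEH-Sham lowest. VEH-HI stood 0.82 above VEH-Sham (SE 0.09), a ratio of 1.77, and 0.62 above VEH-Sham 5.

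The other 6 probe sets of Son did not share that pattern, and 3 of them had the same sign. Son 1439074_a_at had 6.43, 6.55, 6.77, 6.91 and 6.51 in EPO-HI, 6.88, 6.77, 6.43, 6.71 and 6.74 in VEH-HI, 7.20, 7.17, 7.33 and 7.39 in VEH-Sham 1 to 4 and 7.04 in VEH-Sham 5. Every hypoxic ischemia array lay below every sham array, the opposite order to 1420952_at. The difference was -0.52 (SE 0.13), and -0.34 against VEH-Sham 5. Son 1435862_at had 8.22, 8.17, 8.60, 8.55 and 8.05 in EPO-HI, 8.47, 7.85, 8.50, 8.19 and 8.13 in VEH-HI, 8.84, 8.91, 9.00 and 9.05 in VEH-Sham 1 to 4 and 8.32 in VEH-Sham 5. VEH-Sham 5 lay among the VEH-HI arrays, and the difference of -0.60 (SE 0.15) was -0.10 against it. Son 1420951_a_at had 7.12, 6.84, 7.23, 7.44 and 7.33 in EPO-HI, 6.84, 6.95, 7.07, 7.06 and 7.06 in VEH-HI, 7.08, 7.12, 6.97 and 7.52 in VEH-Sham 1 to 4 and 7.27 in VEH-Sham 5. The groups overlapped, with a difference of -0.20 (SE 0.13) and -0.28 against VEH-Sham 5.

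Srrm2, the other speckle scaffold and a large SR-related matrix protein, had its largest difference at 1438688_at. It read 9.90, 9.75, 9.40, 9.54 and 9.82 in EPO-HI, 10.36, 9.96, 10.04, 9.46 and 9.59 in VEH-HI, 9.11, 9.10, 8.98 and 9.15 in VEH-Sham 1 to 4 and 9.24 in VEH-Sham 5. All 10 hypoxic ischemia arrays lay above all 5 sham arrays. The difference was 0.76 (SE 0.14, limma adjusted p = 0.00132), a ratio of 1.70, and 0.64 against VEH-Sham 5. Both other probe sets of Srrm2 had the same sign, at 0.22 and 0.07 (0.08 and 0.62 against VEH-Sham 5), and did not pass. Like Son 1420952_at, it kept most of its difference when VEH-Sham 5 stood for the sham group, as the plot of both kinds of sham array shows. This was not particular to them. Hnrnpr 1427129_a_at, Hnrnpc 1460240_a_at and Son 1439074_a_at were at -0.31, 0.28 and -0.52, and at -0.31, 0.25 and -0.34 against VEH-Sham 5.

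Srrm1, a coactivator that bridges SR proteins on exonic enhancers, had 6 tested probe sets between -0.67 and 0.51. Srrm1 1450045_at had 5.79, 5.60, 5.91, 5.56 and 5.71 in EPO-HI, 6.08, 5.80, 6.04, 6.02 and 5.70 in VEH-HI, 6.89, 6.51, 6.71 and 6.69 in VEH-Sham 1 to 4 and 6.16 in VEH-Sham 5. The sham arrays lay above all VEH-HI arrays, VEH-Sham 5 by the smallest margin. The difference was -0.67 (SE 0.16, limma adjusted p = 0.00613) and -0.24 against VEH-Sham 5, and 2 of the other 5 probe sets had the same sign. Srrm1 1420934_a_at was at 0.51 and did not pass, but stood 1.04 above VEH-Sham 5, the largest such difference of the members. Of the transformer-2 homologs, which bind exonic enhancers, Tra2b was lower at 1427432_a_at by 0.34 (-0.34, SE 0.09, limma adjusted p = 0.00891; -0.18 against VEH-Sham 5). Tra2a had 0 of 4 past the threshold, and at 1429680_at it differed by -0.07 from VEH-Sham and by 0.93 from VEH-Sham 5.

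Clk1 and Clk4, which phosphorylate SR proteins and release them from speckles, had differences of 0.24 at the probe set of Clk1 and 0.14 and 0.17 at the pair of Clk4, none past the threshold. The LUC7-like genes, mammalian relatives of a U1 snRNP protein of yeast, had 1 higher probe set of 13 (7.69%, against 22.8% of all tested probe sets). It was Luc7l3 1451485_at (0.36, SE 0.13, limma adjusted p = 0.0438, and 0.09 against VEH-Sham 5). Luc7l ranged from 0.01 to 0.66 and Luc7l2 from -0.22 to 0.32 without a call, and the 0.66 of Luc7l 1431181_a_at was 0.02 against VEH-Sham 5. Luc7l2 1436766_at stood 0.88 above VEH-Sham 5, with 8.33 in that array and 8.66 to 9.29 in the other sham arrays.

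**Figure D2:**
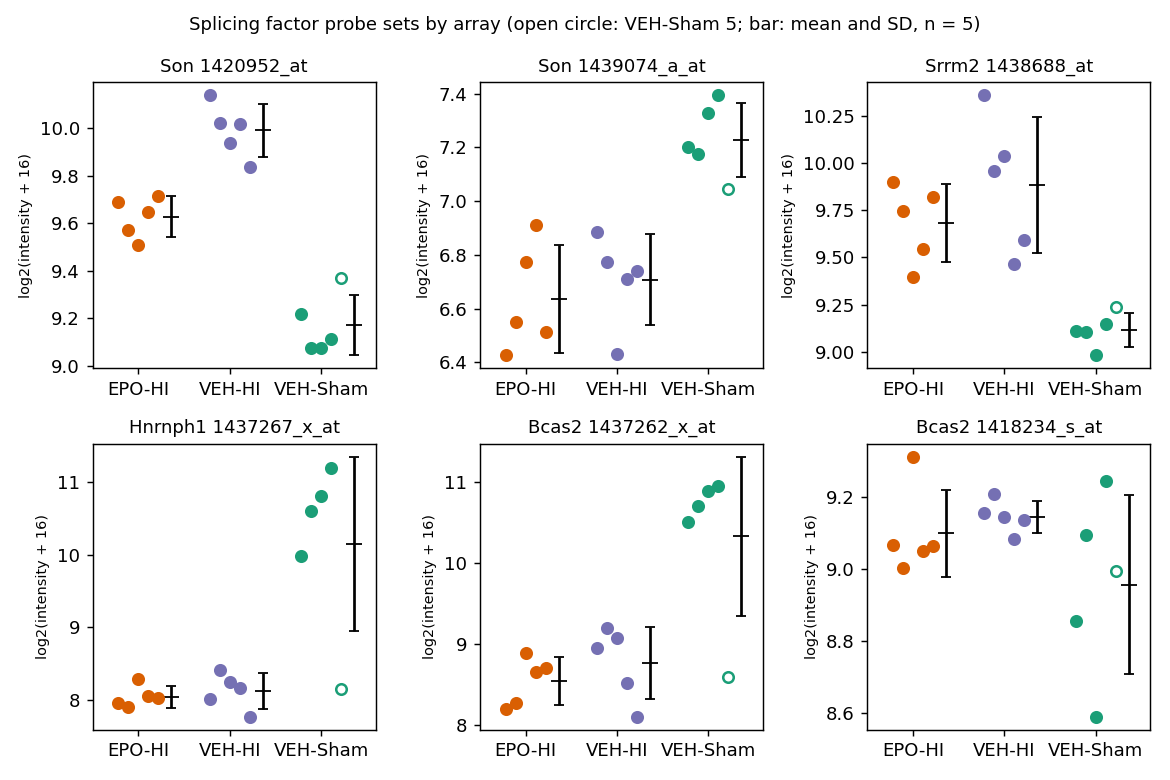
Level in log2(intensity + 16) of 6 probe sets in every array, with EPO-HI, VEH-HI and VEH-Sham from left to right; the open circle is VEH-Sham 5 and bars are mean and SD of 5 arrays. Son 1420952_at separates the 3 groups and Son 1439074_a_at runs the other way, while at Hnrnph1 1437267_x_at and Bcas2 1437262_x_at VEH-Sham 5 lies with the hypoxic ischemia arrays.

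Bcas2, a subunit of the Prp19 complex that activates the assembled spliceosome, had probe sets that parted. Bcas2 1437262_x_at had 8.19, 8.26, 8.89, 8.65 and 8.70 in EPO-HI, 8.94, 9.19, 9.07, 8.52 and 8.10 in VEH-HI, 10.51, 10.71, 10.90 and 10.95 in VEH-Sham 1 to 4 and 8.59 in VEH-Sham 5. VEH-Sham 5 lay inside the VEH-HI arrays and more than 1 unit below its own group. The difference of -1.57 (SE 0.32) became 0.17 against VEH-Sham 5. Bcas2 1418234_s_at had 9.07, 9.00, 9.31, 9.05 and 9.06 in EPO-HI, 9.16, 9.21, 9.14, 9.08 and 9.14 in VEH-HI, 8.86, 9.10, 8.59 and 9.25 in VEH-Sham 1 to 4 and 9.00 in VEH-Sham 5. The groups overlapped there, with a difference of 0.19 (SE 0.10), and 0.15 against VEH-Sham 5.

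Ddx5, a DEAD-box RNA helicase known as p68, had differences of both signs past the threshold. Its 1438371_x_at read 11.23, 11.00, 11.41, 11.32 and 11.32 in EPO-HI, 11.34, 11.43, 11.58, 11.10 and 11.29 in VEH-HI, 11.62, 12.03, 11.63 and 12.04 in VEH-Sham 1 to 4 and 11.26 in VEH-Sham 5. VEH-Sham 5 again lay with the VEH-HI arrays. The difference was -0.37 (SE 0.13, limma adjusted p = 0.0434) and 0.09 against VEH-Sham 5, with 2 of the other 5 probe sets of the same sign. Ddx5 1454793_x_at was at -0.62 (0.10 against VEH-Sham 5), and Ddx5 1433809_at was at 0.50 (0.10 against VEH-Sham 5).

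The hnRNPs had 55 tested probe sets, with a median difference of -0.02. In VEH-HI 6 were higher and 7 lower (23.6%, against 22.8% of all tested probe sets). The largest difference of all members was at Hnrnph1, which binds runs of G in introns and exons. Hnrnph1 1437267_x_at read 7.95, 7.90, 8.28, 8.05 and 8.02 in EPO-HI, 8.01, 8.41, 8.25, 8.17 and 7.77 in VEH-HI, 9.98, 10.60, 10.81 and 11.20 in VEH-Sham 1 to 4 and 8.15 in VEH-Sham 5. VEH-Sham 1 to 4 stood far above the rest, and VEH-Sham 5 lay within the VEH-HI range. The difference of -2.03 (SE 0.35, limma adjusted p = 0.00111) was -0.03 against VEH-Sham 5, and the other probe set of Hnrnph1 was at -0.18.

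Hnrnpr, an RNA-binding protein found in the nucleus and in axons of motor neurons, was the member with the most calls in 1 direction: 4 of its 5 probe sets were lower in VEH-HI, and the fifth had the same sign. Hnrnpr 1429232_at had 6.85, 6.58, 6.89, 6.92 and 6.63 in EPO-HI, 6.58, 6.45, 6.64, 6.52 and 6.76 in VEH-HI, 7.02, 7.15, 7.70 and 7.49 in VEH-Sham 1 to 4 and 6.89 in VEH-Sham 5. The difference was -0.66 (SE 0.14, limma adjusted p = 0.00421) without overlap between VEH-HI and VEH-Sham, and -0.30 against VEH-Sham 5. Hnrnpr 1437526_x_at had 10.91, 10.76, 10.90, 10.85 and 10.65 in EPO-HI, 10.78, 10.84, 10.96, 10.72 and 10.82 in VEH-HI, 11.23, 11.33, 11.47 and 11.47 in VEH-Sham 1 to 4 and 10.88 in VEH-Sham 5. VEH-Sham 5 fell among the VEH-HI arrays there, and the difference of -0.45 (SE 0.10, limma adjusted p = 0.00457) was -0.06 against it. Hnrnpr 1427129_a_at, chosen after its values were seen, had 10.44, 10.23, 10.38, 10.39 and 10.25 in EPO-HI, 10.14, 10.09, 10.34, 10.13 and 10.28 in VEH-HI, 10.40, 10.53, 10.44 and 10.63 in VEH-Sham 1 to 4 and 10.50 in VEH-Sham 5. Every VEH-HI array lay below every sham array, VEH-Sham 5 included, and the difference was -0.31 (SE 0.08, limma adjusted p = 0.011) and -0.31 against VEH-Sham 5. The 5 differences of Hnrnpr from VEH-Sham 5 ran from -0.37 to 0.27.

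Hnrnpf, a close relative of Hnrnph1, had 4 tested probe sets, all past the threshold, 2 in each direction. Hnrnpf 1450963_at had 9.07, 8.97, 8.95, 9.04 and 9.30 in EPO-HI, 9.15, 8.99, 8.91, 9.06 and 9.08 in VEH-HI, 8.54, 8.62, 8.56 and 8.66 in VEH-Sham 1 to 4 and 8.99 in VEH-Sham 5. The difference was 0.36 (SE 0.10, limma adjusted p = 0.0131), and 0.05 against VEH-Sham 5. Its 1437099_x_at and 1456664_x_at were at -0.77 and -0.58, and both were at 0.14 against VEH-Sham 5. The other higher probe set, 1423382_a_at, was at 0.31 (SE 0.10, limma adjusted p = 0.0305), and at 0.02 against VEH-Sham 5. VEH-Sham 5 was thus on the side of the hypoxic ischemia arrays at all 4 probe sets of Hnrnpf.

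Among the other hnRNPs the calls were higher in VEH-HI and small. Hnrnpab 1415914_at had 11.13, 11.14, 10.99, 11.10 and 11.21 in EPO-HI, 11.14, 11.16, 11.03, 11.09 and 11.12 in VEH-HI, 10.81, 10.73, 10.77 and 10.83 in VEH-Sham 1 to 4 and 11.03 in VEH-Sham 5. The groups VEH-HI and VEH-Sham touched at 11.03 without crossing. The difference was 0.27 (SE 0.08, limma adjusted p = 0.0157) and 0.08 against VEH-Sham 5, and 4 of the other 5 probe sets had the same sign. Hnrnpll, a regulator of alternative splicing in lymphocytes, had 9.41, 9.46, 9.51, 9.51 and 9.48 in EPO-HI, 9.17, 9.39, 9.40, 9.35 and 9.52 in VEH-HI, 8.83, 9.30, 8.86 and 8.80 in VEH-Sham 1 to 4 and 9.27 in VEH-Sham 5 at 1425255_s_at. VEH-HI and VEH-Sham overlapped, the difference was 0.35 (SE 0.10, limma adjusted p = 0.0207) and 0.09 against VEH-Sham 5, and the other probe set of Hnrnpll was at -0.05. Hnrnpul1, with 1 probe set (1451984_at), had 9.69, 9.38, 9.54, 9.37 and 9.62 in EPO-HI, 9.61, 9.76, 9.39, 9.49 and 9.60 in VEH-HI, 9.16, 9.31, 9.17 and 9.18 in VEH-Sham 1 to 4 and 9.47 in VEH-Sham 5. It differed by 0.31 (SE 0.09, limma adjusted p = 0.0231), and by 0.10 from VEH-Sham 5, which lay within the VEH-HI range. Hnrnpc, which binds uridine tracts, was at 0.28 at 1460240_a_at (SE 0.09, limma adjusted p = 0.0247) and at 0.25 against VEH-Sham 5.

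Several bright hnRNP probe sets did not pass. Hnrnpk 1460547_a_at, of the KH-domain protein that binds C-rich RNA, had 12.15, 11.92, 11.99, 11.92 and 12.07 in EPO-HI, 11.99, 12.04, 12.08, 12.03 and 12.01 in VEH-HI, 12.10, 12.19, 12.24 and 12.26 in VEH-Sham 1 to 4 and 12.01 in VEH-Sham 5. Hnrnpa2b1 1420365_a_at, of a binder of transported mRNAs, had 11.87, 11.60, 11.78, 11.68 and 11.63 in EPO-HI, 11.29, 11.71, 11.76, 11.57 and 11.76 in VEH-HI, 11.71, 11.62, 11.53 and 11.70 in VEH-Sham 1 to 4 and 11.63 in VEH-Sham 5. These differed between VEH-HI and VEH-Sham by -0.13 (SE 0.08) and -0.02 (SE 0.09), with 2 and 1 of the other 3 probe sets of the same sign. Hnrnpdl 1424251_a_at had 11.56, 11.44, 11.51, 11.51 and 11.70 in EPO-HI, 11.46, 11.51, 11.63, 11.79 and 11.74 in VEH-HI, 11.35, 11.35, 11.24 and 11.49 in VEH-Sham 1 to 4 and 11.58 in VEH-Sham 5, a difference of 0.22 (SE 0.09, limma adjusted p = 0.069), and 0.04 against VEH-Sham 5, with 2 of the other 6 probe sets of the same sign. Hnrnpab 1426114_at varied widely within the hypoxic ischemia groups, with 12.44, 12.03, 10.71, 12.13 and 12.61 in EPO-HI, 12.26, 11.88, 11.81, 12.74 and 12.77 in VEH-HI, 11.61, 11.65, 11.85 and 11.73 in VEH-Sham 1 to 4 and 11.86 in VEH-Sham 5. Its difference of 0.55 (SE 0.25, limma adjusted p = 0.114), or 0.43 against VEH-Sham 5, did not pass. Hnrnpu, the nuclear scaffold attachment factor, ranged from -0.18 to 0.18 over 5 probe sets, Hnrnpa1 from -0.29 to 0.22 over 3, and Hnrnpd from -0.16 to 0.01 over 3.

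**Figure D3:**
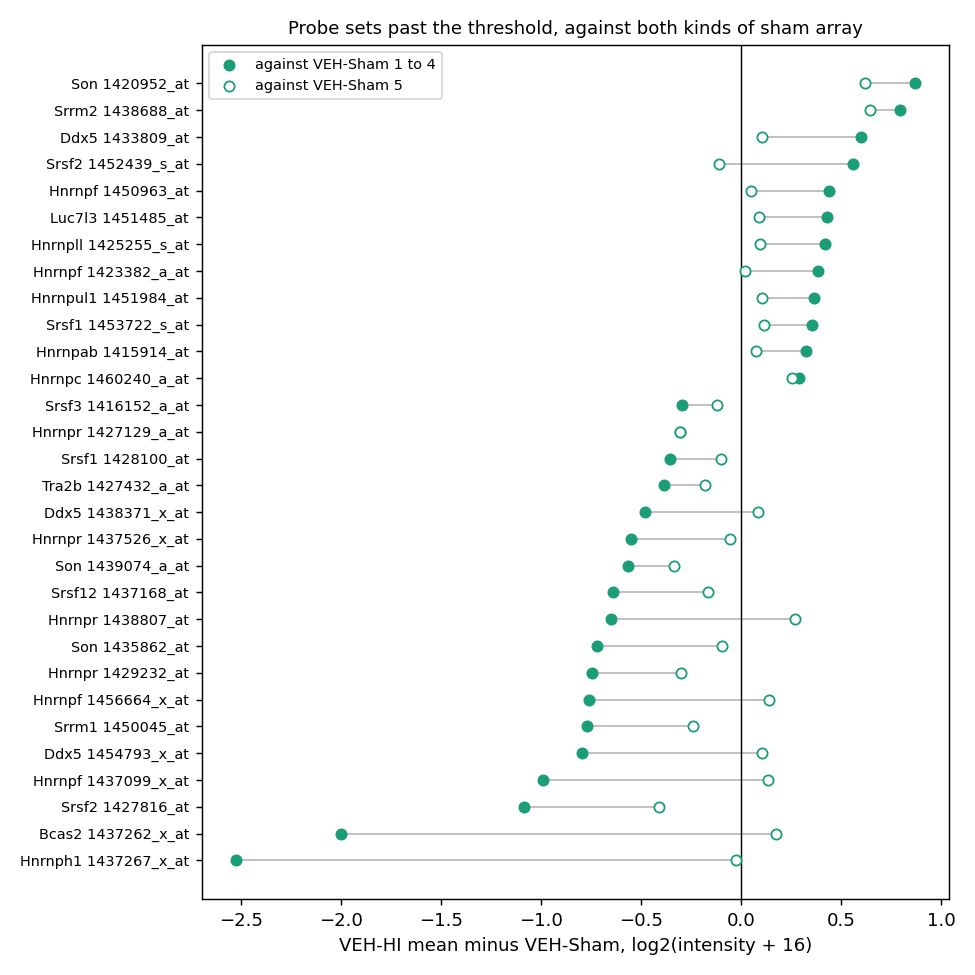
VEH-HI mean minus sham in log2(intensity + 16) for the 30 splicing factor probe sets past the threshold, against VEH-Sham 1 to 4 (filled) and against VEH-Sham 5 alone (open). Open circles lie nearer 0 for nearly all; Son 1420952_at and Srrm2 1438688_at stay at 0.62 and 0.64, and Hnrnph1 1437267_x_at lies at -0.03.

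Names ending in _x_at mark probe sets in which some probes may also match other transcripts. Of the 15 tested splicing factor probe sets of that kind, 0 were higher and 7 lower (46.7%), against 34% of all 1726 such probe sets on the array, where 311 were higher and 275 lower. The members' split was not tested against that one. Bcas2 1437262_x_at, whose values had entered the choice, was 1 of the 7. Only 2 of the 7 kept their sign against VEH-Sham 5, and at all 7 VEH-Sham 5 lay within the range of the VEH-HI arrays. The mean level of the 15 was 9.44 to 9.70 in EPO-HI, 9.41 to 9.81 in VEH-HI, 9.95 to 10.24 in VEH-Sham 1 to 4 and 9.65 in VEH-Sham 5. Without these probe sets, 12 were higher and 11 lower of the 119 left in VEH-HI (19.3%), against 22.1% of all probe sets of the other kinds, and 21 of those 23 kept their sign against VEH-Sham 5. Of the member genes, 14 overlap another protein-coding gene in the table of assembly GRCm38.p6, such as Son with Donson, Srsf2 with Mfsd11 and Ddx5 with Cep95. Whole gene spans were compared, without regard to strand or to where the probes lie. The share over all genes was not computed, and a link to the probe set differences was not tested.

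Whether probe sets of 1 gene differed from each other was tested within arrays, as the difference of each from the brightest probe set of its gene. Of 93 such pairs in 30 splicing factor genes, 23 (24.7%) had a difference that changed between VEH-HI and VEH-Sham, in 12 genes. Over the whole array this held for 15.6% of 10196 pairs. Of the 23, 6 were pairs of Son and 1 was the pair of Bcas2, whose values had entered the choice, and without these genes it was 16 of 86 (18.6%). In 17 of the 23 the 2 probe sets had differences of opposite sign, 8 of the 23 involved a probe set ending in _x_at, and 16 kept the sign against VEH-Sham 5. The other 6 probe sets of Son, all set against 1420952_at, had differences from it of -1.42 to -0.64, and of -0.96 to -0.34 against VEH-Sham 5. Srrm1 1450045_at parted from 1447447_s_at by -0.83 (SE 0.15, limma adjusted p = 0.00578), and by -0.53 against VEH-Sham 5. Srrm1 1447447_s_at itself had 9.12, 8.94, 8.72, 8.77 and 8.95 in EPO-HI, 9.21, 8.78, 8.89, 9.04 and 8.98 in VEH-HI, 8.67, 8.94, 8.85 and 8.93 in VEH-Sham 1 to 4 and 8.69 in VEH-Sham 5, with overlapping groups. Srsf2 1452439_s_at parted from 1427504_s_at by 0.66 (SE 0.14, limma adjusted p = 0.0114), and by 0.12 against VEH-Sham 5. Srsf2 1427504_s_at had 10.40, 10.35, 10.12, 10.23 and 10.69 in EPO-HI, 10.43, 10.02, 10.26, 10.47 and 10.73 in VEH-HI, 10.55, 10.54, 10.66 and 10.71 in VEH-Sham 1 to 4 and 10.61 in VEH-Sham 5, with overlapping groups. For the Bcas2 pair the 1.76 (SE 0.37) was -0.02 against VEH-Sham 5. A ratio within an array shows unequal change of 2 probe sets and does not say which transcript forms they read.

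EPO-HI was set against VEH-HI to see what erythropoietin changed in the injured forebrain, and both groups lay in 1 array set. None of the 134 splicing factor probe sets passed the adjusted threshold in limma, nor did any on the whole array (0%). At an unadjusted p under 0.05 there were 5 of 134, against 3.94% of all tested probe sets. Son 1420952_at was 1 of the 5. Differences ran from -0.43 to 0.31, and 127 of the 134 lay within 0.3 in either direction. EPO-HI and VEH-HI arrays did not overlap at 1 member probe set, Son 1420952_at, and 0.822% of all tested probe sets met that condition. Son was lower in EPO-HI there by 0.36 (-0.36, SE 0.09), a difference the choice of Son rests on, and at the other 6 probe sets of Son the differences ran from -0.09 to 0.20.

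**Figure D4:**
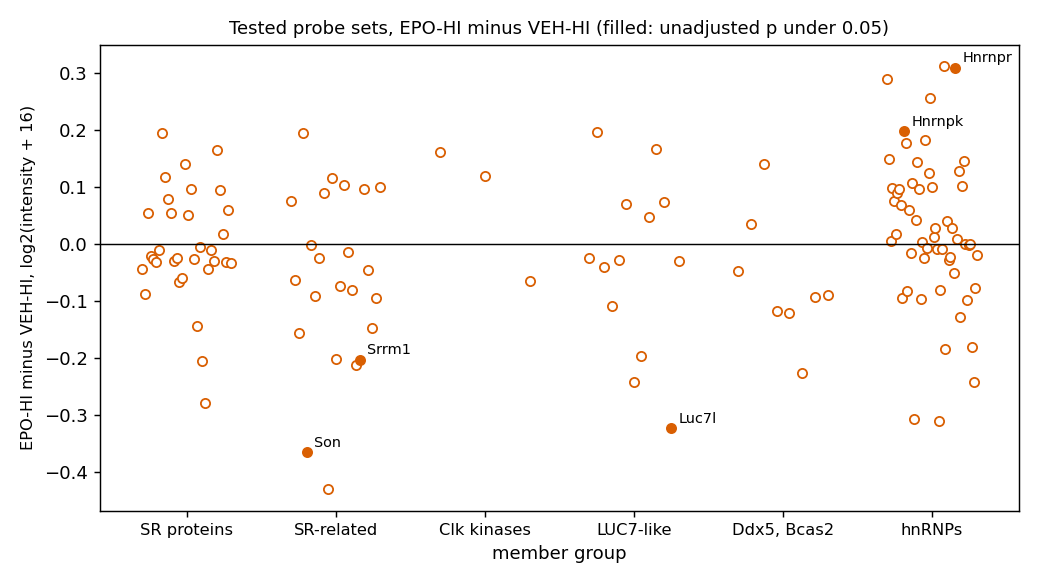
Difference between EPO-HI and VEH-HI in log2(intensity + 16) at the 134 tested probe sets, spread sideways within each group of members. Filled circles had an unadjusted p under 0.05 (5 probe sets, named by gene); none passed after adjustment over the array, and nearly all lie within 0.3 of 0.

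The largest positive erythropoietin differences by p-value did not separate the groups. Hnrnpr 1452030_a_at had 8.99, 8.69, 8.75, 8.83 and 8.64 in EPO-HI and 8.41, 8.35, 8.49, 8.37 and 8.73 in VEH-HI, with 8.57 to 8.84 in VEH-Sham. Only VEH-HI 10 reached into the EPO-HI range, and the difference was 0.31 (SE 0.10, limma adjusted p = 1). The other 4 probe sets of Hnrnpr ran from -0.01 to 0.31. Hnrnpk 1423684_at had 10.89, 10.69, 10.93, 11.00 and 10.86 in EPO-HI and 10.61, 10.80, 10.84, 10.53 and 10.59 in VEH-HI, a difference of 0.20 (SE 0.09). Luc7l3 1424802_a_at had 10.44, 10.26, 10.05, 10.27 and 9.98 in EPO-HI and 9.98, 9.83, 10.18, 10.01 and 10.01 in VEH-HI, a difference of 0.20 (SE 0.09). Hnrnpul2 1415765_at had 7.73, 7.63, 8.16, 8.01 and 7.99 in EPO-HI and 7.67, 7.86, 7.59, 7.15 and 7.78 in VEH-HI, a difference of 0.29 (SE 0.15). Values of the groups overlapped at each of these.

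On the negative side, Luc7l 1452708_a_at had 6.99, 6.35, 6.48, 6.57 and 6.96 in EPO-HI and 6.92, 7.28, 7.09, 6.69 and 6.99 in VEH-HI, a difference of -0.32 (SE 0.15). Srrm1 1454689_at had 8.94, 8.81, 8.56, 8.61 and 8.57 in EPO-HI and 9.16, 8.91, 8.80, 8.88 and 8.75 in VEH-HI, a difference of -0.20 (SE 0.10). Srrm2 1437638_at had 6.38, 6.00, 5.44, 5.34 and 6.02 in EPO-HI and 5.97, 6.33, 6.44, 6.32 and 6.27 in VEH-HI, a difference of -0.43 (SE 0.23). These too overlapped, and all 3 had an adjusted limma p of 1. All 3 probe sets of Srrm2 were below 0, at -0.43 to -0.09, and none passed. Of the probe set pairs of 1 gene, 0 of 93 passed in this comparison in limma, and 0 of the 10196 pairs of the whole array did.

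EPO-HI against VEH-Sham shares its sham arrays with the comparison of VEH-HI and its values are therefore given side by side only. Of the 134 probe sets, 13 were higher and 16 lower in EPO-HI (21.6%), against 18.3% of all tested probe sets (7.42% higher and 10.9% lower), and 52 had an unadjusted p under 0.05, against 34.7% of all. Srrm2 1438688_at stood 0.56 above VEH-Sham in EPO-HI and 0.76 above it in VEH-HI. Srsf12 was at -0.55 in both, Hnrnph1 1437267_x_at at -2.11 in EPO-HI and -2.03 in VEH-HI, and Hnrnpr 1429232_at at -0.47 in EPO-HI and -0.66 in VEH-HI. Against VEH-Sham 5 alone, EPO-HI stood at 0.44 for Srrm2 1438688_at, -0.17 for Srsf12, -0.11 for Hnrnph1 1437267_x_at and -0.12 for Hnrnpr 1429232_at.

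Other genes of the splicing machinery were read at 1 probe set per gene, the brightest one tested. In that reading 23.4% of all 13168 genes passed, 1573 higher and 1510 lower. Of the 41 members read this way, 4 were higher and 6 lower in VEH-HI (24.4%). Son was among the higher ones and Bcas2 among the lower ones. Of 35 tested genes of the core spliceosome, 16 were higher and 0 lower, with a median difference of 0.31, or 0.12 against VEH-Sham 5, where the median of all genes was -0.02 and 0.00. VEH-Sham 5 lay within the VEH-HI range at 8 of the 16 (50%), against 52.8% of all genes past the threshold. Snrpg, Snrpe and Snrpb, which encode proteins of the Sm ring around spliceosomal RNAs, were higher by 0.45 (SE 0.09), 0.53 (SE 0.11) and 0.57 (SE 0.12), and by 0.30, 0.34 and 0.17 against VEH-Sham 5. Of 18 other SR-related genes, 2 were higher, Ddx39b (0.58, and 0.31 against VEH-Sham 5) and Scaf11 (0.63, and 0.17 against VEH-Sham 5). Of 8 further kinases and import factors of SR proteins 1 was higher, Dyrk1a (0.33, and 0.17 against VEH-Sham 5). Among 12 other nuclear RNA-binding proteins Pcbp2 (0.64), Ewsr1 (0.45) and Pcbp1 (0.33) were higher, and against VEH-Sham 5 they were at 0.33, 0.10 and 0.17. Of 25 tissue-regulated splicing regulators, 2 were lower and 2 higher. The higher ones were Celf1 (0.25, and 0.11 against VEH-Sham 5) and Rbfox2 (0.30, and 0.06 against VEH-Sham 5). Rbfox1, which directs neuronal exon choice, was lower at -0.44 (SE 0.10, limma adjusted p = 0.00614) and at -0.44 against VEH-Sham 5, and Elavl4, of a neuronal RNA-binding protein, was lower at -0.39 and at -0.02 against VEH-Sham 5. Of 5 nuclear long noncoding RNAs, Neat1, the scaffold of paraspeckles, was lower at -0.75 (SE 0.18) and at -0.12 against VEH-Sham 5.

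Markers of other cell types also differed between VEH-HI and VEH-Sham, and their part in the results above was not tested. The mean level of 5 genes of reactive glia was 8.08 to 9.04 in EPO-HI, 7.87 to 9.57 in VEH-HI, 6.96 to 7.33 in VEH-Sham 1 to 4 and 7.24 in VEH-Sham 5, with 4 of 5 higher in VEH-HI. For 7 genes of microglia and macrophages it was 8.05 to 8.61 in EPO-HI, 8.37 to 8.94 in VEH-HI, 7.63 to 7.91 in VEH-Sham 1 to 4 and 7.85 in VEH-Sham 5, with 6 of 7 higher. Of 4 genes of excitatory forebrain neurons 2 were lower and their mean level was 8.20 to 8.79 in EPO-HI, 8.08 to 8.87 in VEH-HI, 8.85 to 9.01 in VEH-Sham 1 to 4 and 8.59 in VEH-Sham 5. None of 5 general neuronal genes passed, and their mean level of 11.4 to 11.6 in EPO-HI, 11.0 to 11.7 in VEH-HI and 11.5 to 11.7 in VEH-Sham showed the markers of the labelled tissue in every group. At the lists of reactive glia and of microglia and macrophages VEH-Sham 5 lay with the other sham arrays. Other lists differed. For 5 astrocyte genes, 2 of them higher, VEH-Sham 5 was at 10.27. VEH-Sham 1 to 4 were at 9.92 to 10.26 there and VEH-HI at 10.21 to 10.63. For 3 endothelial genes, 1 of them higher, VEH-Sham 5 was at 7.13. VEH-Sham 1 to 4 were at 6.47 to 6.81 there and VEH-HI at 6.73 to 7.68.

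When the arrays were set to equal medians, the median difference of all tested probe sets between VEH-HI and VEH-Sham moved to 0.22 and that of the members to 0.32. With that shift 51 splicing factor probe sets were higher and 5 lower (41.8%, against 31.7% of all tested probe sets). With quantile normalization 9 were higher and 25 lower (25.4%, against 21.1% of all). The split between higher and lower calls thus differed between scalings. Hnrnpk 1460547_a_at, Hnrnpa2b1 1420365_a_at, Son 1420951_a_at and Srsf2 1427504_s_at were below 0, at -0.13, -0.02, -0.20 and -0.23, and moved above 0 with the shift of all probe sets, to 0.19, 0.30, 0.08 and 0.09.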

How the data were processed

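Total RNA of mouse forebrain was measured on 15 Affymetrix arrays, 5 per group. The authors deposited 1 linear intensity per probe set and array, made with software not given in the sources used here. Their values show that each array was scaled to a mean intensity of 150 after trimming 2% at each end. All value columns were matched to samples by name (0 unmatched), and 64 control probe sets of 45101 were left out. Names came from the platform's annotation, updated by gene number against GRCm38.p6 (0 member symbols changed): 34945 probe sets had 1 symbol, 932 several and 9160 none listed.

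Values were taken as log2(intensity + 16), which understates changes of dim genes. The brightest 60% (27022 probe sets, mean at least 5.46) entered 1 limma 3.58.1 fit of 3 group means (R 4.3.3, lmFit and eBayes with trend, two-sided). Differences between probe sets of a gene had their own fit over 10196 pairs. Both fits were tested on simulated data. Figures used matplotlib 3.10.9 under Python 3.11.15. The number of arrays limits precision. Members, gene lists and naming rules were chosen with earlier results of these data known. Arrays were given in full for the 8 smallest p each way (VEH-HI against VEH-Sham), the 4 smallest each way (EPO-HI against VEH-HI), the 5 brightest genes, Son, Bcas2 and the 6 leading opposite pairs. Alternatives were another filter, normalization, pseudocount, array set, omitted arrays and omitted _x_at probe sets.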

Additional observations from a re-analysis of the deposited data

Results flagged for a closer look

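Among the 99 combinations of a named probe set and a group, 6 had 1 array whose gap to the nearest other exceeded Dixon's 95% limit for 5 values (0.71 of the range). Chance flags about 1 in 20 such groups. VEH-Sham 5 was the array in 4 of them: 8.99 at Hnrnpf 1450963_at with the nearest sham array at 8.66, 8.59 at Bcas2 1437262_x_at with the nearest at 10.51, 8.84 at Hnrnpr 1452030_a_at with the nearest at 8.61, and 8.32 at Son 1435862_at with the nearest at 8.84. EPO-HI 15 stood at 9.04 at Srsf2 1452439_s_at, where the nearest EPO-HI array had 8.79. EPO-HI 13 stood at 9.31 at Bcas2 1418234_s_at, where the nearest had 9.07.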

How the results depend on the processing

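The counts of splicing factor probe sets for VEH-HI against VEH-Sham (12 higher, 18 lower), EPO-HI against VEH-Sham (13 higher, 16 lower) and probe set pairs (23) fell to 0 with the array set as a block and within the set of 11 arrays, fits in which VEH-Sham 5 alone stands for the sham group. In those fits Srsf2 1452439_s_at was at -0.11, Bcas2 1437262_x_at at 0.17, Hnrnpk 1460547_a_at at 0.020 and Ddx5 1438371_x_at at 0.085. Equal array medians gave 51 higher and 5 lower for VEH-HI and 68 higher and 6 lower for EPO-HI. These were 41.8% and 55.2% of the members, against 31.7% and 37.4% of all tested probe sets. Hnrnpk 1460547_a_at was then at 0.19, Hnrnpa2b1 1420365_a_at at 0.30, Son 1420951_a_at at 0.084 and Srsf2 1427504_s_at at 0.086. The cause was not tested. Without _x_at probe sets, an alternative chosen after seeing the data, 12 were higher and 11 lower in VEH-HI and 13 higher and 9 lower in EPO-HI. These were 19.3% and 18.5% of the members left, against 22.1% and 17.3% of all probe sets left. The member probe sets left out had 0 higher and 7 lower in each comparison. No filter, quantile normalization and a pseudocount of 1 kept every count within 1.5 times. Leaving out 1 array gave 6 to 22 higher and 13 to 21 lower for VEH-HI, 6 to 29 higher and 11 to 21 lower for EPO-HI, and 12 to 31 pairs. Higher counts for VEH-HI were 7, 6, 7 and 22 without VEH-Sham 2, 3, 4 and 5. For EPO-HI they were 8 and 8 without EPO-HI 11 and 14, and 6, 6, 8 and 29 without VEH-Sham 1, 3, 4 and 5. The whole array moved too. For VEH-HI without VEH-Sham 5, 32.1% of the members passed in either direction, against 35.6% of all tested probe sets. Without VEH-Sham 3 it was 14.2% against 14.4%. For EPO-HI these shares were 37.3% against 33.6%, and 13.4% against 9.88%. Pairs numbered 13, 13 and 15 without VEH-HI 6, 9 and 10, and 14, 12 and 13 without VEH-Sham 1, 3 and 4. Hnrnpa2b1 1420365_a_at was at 0.062 without VEH-HI 6 and between -0.056 and 0.062 over all omissions of 1 array. The count for EPO-HI against VEH-HI was 0 under every alternative run. No paired analysis was possible because replicate numbers run through the whole series. The number of arrays and signal over background limit dim probe sets; depth has no counterpart here.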
